A study of Mus musculus with 4 samples.

Results

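The genes described here serve the response to amino-acid shortage and endoplasmic reticulum (ER) stress, the synthesis of serine and one-carbon units, and the uptake of amino acids. They are 36 of the 24347 gene rows of the expression tables and were chosen by symbol: *Atf4* and 9 genes of its response, 5 genes of ER stress, 10 enzymes of serine, one-carbon and proline synthesis, and 11 amino-acid transporters. RNA-seq was performed on embryoid bodies (EBs), balls of differentiating mouse embryonic stem cells (mESCs), after 3 days in medium with serum and without LIF. WT mESCs (strain 129/Ola) were compared with mESCs of the same strain that carried a CRISPR/Cas9 deletion of the promoter of *Gm11549*, the gene of the micropeptide NEMEP (promoter KO), with 2 samples per genotype. The promoter KO lines were grown from single sorted cells, and the sources used here do not say whether the 2 promoter KO samples came from different clones. The comparison asks whether cells without the promoter show a nutrient stress response. Expression is in FPKM, in which fragments are scaled to transcript length and library size, so levels can be compared between genes.

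When amino acids run short, uncharged tRNAs activate the kinase GCN2, and when unfolded proteins build up in the ER they activate the kinase PERK. Both phosphorylate the initiation factor eIF2, which slows translation in general and raises the translation of *Atf4* mRNA. The ATF4 protein then induces genes of amino-acid synthesis, uptake and tRNA charging, and under long stress the pro-apoptotic factor CHOP (*Ddit3*). Since ATF4 is controlled largely at translation, its targets report on it more directly than its own mRNA does. ER stress also acts through ATF6 and XBP1, which induce the chaperones of the ER. Rapidly dividing mESCs draw heavily on one-carbon units and amino acids.

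*Gm11549* (chr3:36515057-36521813, minus strand, GRCm38) had 0.7505 (WT 1) and 0.522 FPKM (WT 2), against 0 (promoter KO 1) and 0.0659 FPKM (promoter KO 2). The promoter KO samples were both lower than either WT sample, which fits the labels, with a mean at 5.18% of WT. It was below the filter and was not tested. The labels call the cells mesendoderm, and its markers were present: *T*, the most abundant of the 9 genes listed, read 306 and 448 FPKM for WT, against 50.6 and 127 for promoter KO.

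Markers of the cell types in the EBs differed between the genotypes. Of the 11941 tested genes 1.89% fell and 1.68% rose, and at an unadjusted p under 0.05 there were 15.6% lower and 15.0% higher. The 9 mesendoderm markers summed to 790 and 1024 FPKM for WT against 152 and 320 FPKM for promoter KO, and 6 of them fell. Of 10 pluripotency markers 2 rose, *Utf1* and *Dnmt3l*, and at an unadjusted p under 0.05 there were 5 higher and 1 lower, *Nanog*. The list summed to 2076 and 1806 FPKM in WT against 3065 and 2601 FPKM in promoter KO, with *Pou5f1* the most abundant. Of 12 extraembryonic endoderm markers 7 rose, and at an unadjusted p under 0.05 there were 9 higher and 1 lower, *Sox17* (*Nanog* and *Sox17* were named after their values were seen). This list had sums of 122 and 157 FPKM in WT against 253 and 314 FPKM in promoter KO and *Sparc* the most abundant. Of the 7 neuroectoderm markers 2 were tested and 0 were called by limma, with *Otx2* the most abundant and sums of 77.5 to 94.0 FPKM. At an unadjusted p under 0.05, 1 of them was lower. The 5 that were not tested stayed under 1 FPKM in all samples, and all 5 were higher in both promoter KO samples, where 32.9% of tested genes were. Of the 7 fibroblast markers 2 were tested and 0 were called by limma, with *Thy1* the most abundant, sums of 10.9 to 17.3 FPKM, and *Postn* and *Lum* at 0 in all samples. At an unadjusted p under 0.05, 1 of these was lower. In whole EBs, more cells of a type and more RNA per cell cannot be told apart, and the part of these cell types in the results that follow was not tested.

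Genes were tested with limma on log2(FPKM + 1), and a gene was called at a Benjamini-Hochberg adjusted p under 0.05. Of the members 35 passed the filter of at least 1 FPKM in at least 2 samples, and *Slc7a11* did not. A single member fell, *Ddit3*, where 1.89% of the 11941 tested genes fell, and a single member rose, *Hspa5*, where 1.68% of the tested genes rose. With 1 of 35 in each direction these shares are near those of all genes, and the members' median log2 fold change of -0.02 was near the 0.00 of all tested genes. At an unadjusted p under 0.05 there were 6 members lower, against 15.6% of tested genes, and 11 higher, against 15.0%. The 2 genotypes did not overlap for 11 members that were lower in promoter KO, against 32.4% of tested genes, and for 13 that were higher, against 32.9%. With an unadjusted p under 0.05 and a fold change of FPKM + 1 below 0.5 no member passed, against 1.63% of tested genes, and with one above 2 only *Slc7a3* did, against 1.4%. On FPKM without the pseudocount *Chac1* would also pass, at 48.1% of WT (unadjusted p = 0.0062). Leaving out 1 sample changed the calls, and fewer residual degrees of freedom (1 against 2) are part of this change. Without WT 2 limma called none of the 11941 genes (976 lower and 899 higher at an unadjusted p under 0.05), nor without promoter KO 1 (1043 lower and 966 higher). Without WT 1 it called 114 lower and 61 higher, among them *Chac1* and *Slc7a3*, and without promoter KO 2 it called 248 lower and 238 higher, among them *Hspa5* and *Sesn2*.

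**Figure D1:**
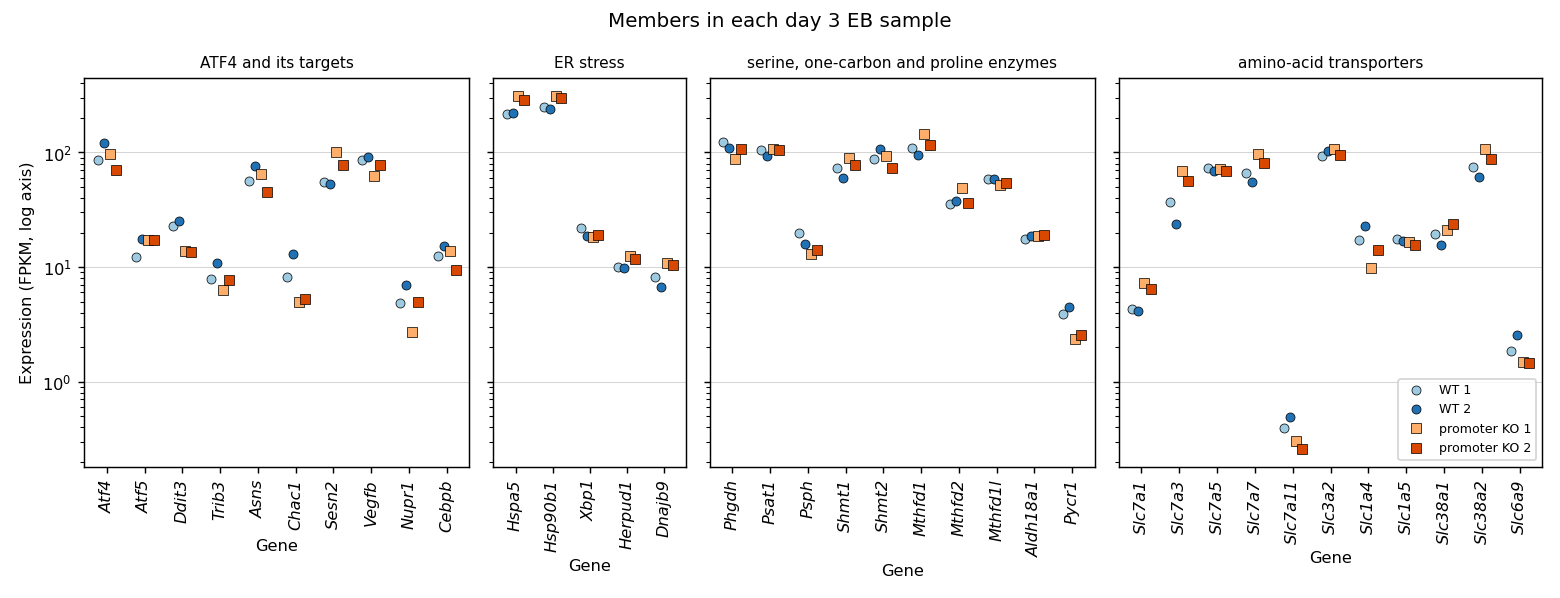
Expression of the 36 members in each sample (FPKM, log axis), grouped by role; circles are WT and squares promoter KO. *Hsp90b1* and *Hspa5* lie highest, above 200 FPKM, and *Slc7a11* lies below 1 FPKM in all 4 samples.

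*Atf4* and its targets were not raised as a group. Of these 10 genes 1 fell and none rose, where 1.89% of all tested genes fell. A log2 fold change below 0 was found for 8 of them, against 49.5% of tested genes, and the median of the 10 was -0.32. This shift rested in part on WT 2, in which 9 of the 10 were higher than in WT 1, against 49.1% of tested genes. Without WT 2 no sign changed, but *Asns*, *Cebpb* and *Trib3* shrank to -0.07, -0.11 and -0.17. *Ddit3* (-0.69) and *Sesn2* (0.67) moved little, and *Atf5* grew to 0.46. Without promoter KO 2 *Asns* shrank to -0.0028 and *Cebpb* turned to 0.0027. *Trib3* (-0.50), *Vegfb* (-0.51), *Nupr1* (-0.87), *Chac1* (-0.93) and *Sesn2* (0.88) were then larger in size. *Atf4* mRNA itself had levels of 86.2 and 120.0 FPKM (WT) and 97.2 and 71.0 FPKM (promoter KO). Both the highest and the second-lowest value belonged to WT, so the genotypes overlapped, and the log2 fold change of -0.29 (95% interval -0.78 to 0.21, adjusted p = 0.365) was within the spread between replicates. It was -0.53 without WT 1 and -0.51 without promoter KO 1, against -0.05 without WT 2 and -0.06 without promoter KO 2.

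*Ddit3*, which encodes the pro-apoptotic factor CHOP, was the member that fell. It gave 22.67 and 25 FPKM for WT, with 13.7 and 13.6 for promoter KO. The replicates lay close together and the genotypes did not overlap. The means were 23.8 ± 1.65 FPKM for WT and 13.7 ± 0.0351 FPKM for promoter KO (SD, n = 2 each), 57.3% of WT, with a log2 fold change of -0.76 (SE 0.10, limma adjusted p = 0.0371). Leaving out 1 sample ended the call each time, with an adjusted p of 0.0656 without WT 1, 0.198 without WT 2, 0.141 without promoter KO 1 and 0.0524 without promoter KO 2. The log2 fold change stayed between -0.83 and -0.69. The call was also lost without a filter (adjusted p = 0.134) and without the trend (0.0605). *Ddit3* (chr10:127290774-127296288, plus strand, GRCm38) shares exon sequence with *Mars* and *Gm4189* on the opposite strand, and the sources used here do not say whether reads were counted by strand. *Mars*, the methionyl-tRNA synthetase, named for this overlap after its values were seen, read 71.5 and 73.6 FPKM for WT, against 77.0 and 72.9 for promoter KO. A further annotation entry under the symbol *Ddit3* shares exon sequence with this gene on the same strand. Counting by strand would not separate the entries.

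*Chac1*, which degrades glutathione and is induced by ATF4 and CHOP, had levels of 8.11 and 13.0 FPKM (WT) and 4.94 and 5.23 FPKM (promoter KO). Neither promoter KO sample reached the lower WT sample, and the WT samples differed from each other more than the promoter KO samples did. The log2 fold change of -0.89 (SE 0.22) missed the threshold (adjusted p = 0.0688). It passed without WT 1 (adjusted p = 0.0492), shrank to -0.58 without WT 2 (0.247), and was not called without promoter KO 1 (0.27) or promoter KO 2 (0.121). *Trib3*, a pseudokinase that restrains ATF4 and CHOP, gave 7.91 and 10.8 FPKM for WT, with 6.25 and 7.66 for promoter KO. The genotypes stood apart only by the gap between 7.91 and 7.66 FPKM, and the difference of -0.37 on the log2 scale was not called (adjusted p = 0.222).

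*Asns*, the asparagine synthetase and a standard readout of amino-acid shortage, read 56.8 and 75.4 FPKM for WT, against 65.4 and 44.9 for promoter KO. Its samples stood in the same order as those of *Atf4*, with WT 2 highest and promoter KO 2 lowest, and the genotypes overlapped (log2 fold change -0.27, 95% interval -0.78 to 0.24, adjusted p = 0.411). This log2 fold change was -0.47 without WT 1 and -0.53 without promoter KO 1, against -0.07 without WT 2 and -0.0028 without promoter KO 2. *Sesn2*, a leucine sensor and inhibitor of mTORC1, ran the other way, at 54.9 and 53.2 FPKM (WT) and 100.2 and 77.6 FPKM (promoter KO). Both promoter KO samples were above both WT samples, and the log2 fold change of 0.70 (SE 0.13) lay just outside the threshold (adjusted p = 0.0506). Without promoter KO 2 it was called (adjusted p = 0.0352), and without WT 1 (0.113), WT 2 (0.245) or promoter KO 1 (0.15) it was not. *Vegfb*, a growth factor induced by ATF4, was higher in both WT samples (85.9 and 91.1 FPKM) than in promoter KO (61.8 and 78.2 FPKM), with an adjusted p of 0.135. The transcription factors *Atf5* (14.8 FPKM in WT, 17.3 in promoter KO) and *Cebpb* (13.9 and 11.7 FPKM) and the stress-induced regulator *Nupr1* (5.88 and 3.84 FPKM) overlapped between the genotypes, with adjusted p of 0.235 to 0.423.

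**Figure D2:**
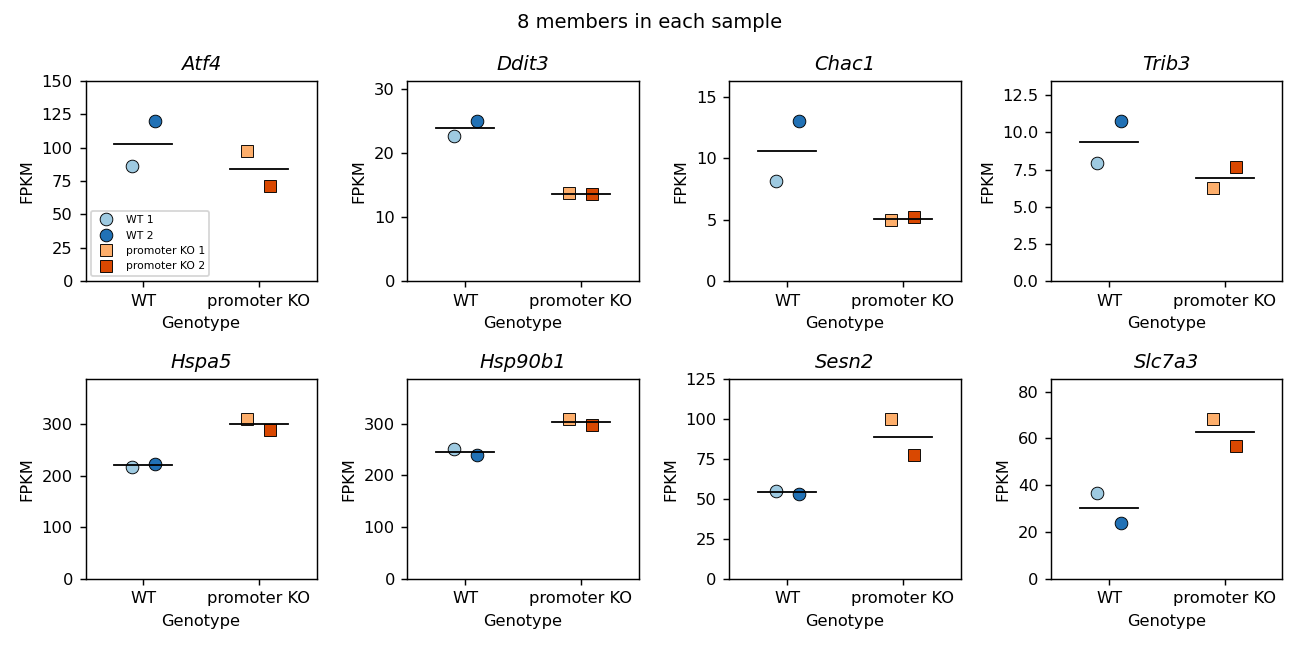
Expression (FPKM, axis from 0) of 8 members in each sample, with a line at the mean of each genotype. *Ddit3* and *Chac1* lie lower in both promoter KO samples, *Hspa5*, *Hsp90b1*, *Sesn2* and *Slc7a3* lie higher in both, and *Atf4* overlaps.

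Promoters of some of these genes carry letters that ATF4 and its partners are known to bind. RefSeq promoters (GRCm38.p6), which run from 250 bases before to 50 bases after a gene's start, were found for 32 members. TGATGNAA, the core of the composite element bound by ATF4 with a C/EBP factor, was searched on both strands. It stood in 9 of the 32 members (*Trib3*, *Asns*, *Chac1*, *Nupr1*, *Herpud1*, *Pycr1*, *Slc7a7*, *Slc7a11* and *Slc1a4*), against 4.51% of 27025 genes and 3.97% of 32851 promoters. Many members were listed because ATF4 is known to induce them, so this share follows in part from the choice. The cAMP response element TGACGTCA, which cannot stand at the same position, stood in 0 of the 32 against 2.03% of genes. Windows are printed for 5 of the 9 genes, chosen after their values were seen: *Trib3*, *Asns* and *Chac1* as core targets, *Slc1a4* as a transporter lower in promoter KO and *Slc7a7* as one that was higher. Capitals mark the motif on either strand, and the letters run in the direction of the gene. They lie at chr2:152344028-152344057 (*Trib3*), chr6:7693214-7693243 (*Asns*), chr2:119351038-119351067 (*Chac1*), chr11:20332699-20332728 (*Slc1a4*) and chr14:54418067-54418096 (*Slc7a7*). *Chac1* is on the plus strand and the other 4 are on the minus strand.
Trib3: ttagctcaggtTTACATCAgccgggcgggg
Asns: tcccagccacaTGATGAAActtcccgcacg
Chac1: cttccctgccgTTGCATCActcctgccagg
Slc1a4: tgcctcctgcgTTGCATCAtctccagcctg
Slc7a7: ccgcttgggctTGATGAAAggttcactggg
Of the 8 tested members with these letters 6 had a log2 fold change below 0 and none was called by limma, and the median of the 8 was -0.45. Without WT 2 all 8 lay closer to 0 with the same sign. They were then -0.07 (*Asns*), -0.17 (*Trib3*), -0.30 (*Nupr1*), -0.50 (*Pycr1*), -0.52 (*Slc1a4*), -0.58 (*Chac1*), 0.27 (*Herpud1*) and 0.43 (*Slc7a7*). Of the 23 tested members with a promoter that lacked them 10 had one below 0, and the median was 0.05. Among all tested genes the share below 0 was 44.8% of the 230 with the letters and 48.9% of the 8882 without. Of the 230 genes 2 fell and 11 rose, and of the 8882 genes 168 fell and 136 rose. The promoters of *Slc7a7* and *Slc7a11* hold more than 1 match. A match describes the sequence only and does not show that the factor was bound.

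Of the 5 ER stress members 1 rose and none fell, where 1.68% of tested genes rose and 1.89% fell, and for 4 of them both promoter KO samples were above both WT samples, where 32.9% of tested genes were. *Hspa5* encodes BiP, the main Hsp70 chaperone of the ER and a standard readout of ER stress. It had levels of 217 and 222 FPKM (WT) and 310.5 and 289 FPKM (promoter KO). The genotypes were well apart against a small spread within each. The means were 219.8 ± 3.58 and 299.8 ± 15.2 FPKM (SD, n = 2 each), a rise to 136% of WT with a log2 fold change of 0.45 (SE 0.08, limma adjusted p = 0.0456). The call held without promoter KO 2 (adjusted p = 0.0496) and was lost without WT 1 (0.114), WT 2 (0.216) or promoter KO 1 (0.171), while the log2 fold change stayed between 0.39 and 0.50. It was also lost after centring each sample on its median (adjusted p = 0.0507), with a filter at a mean of 5 FPKM (0.05), without a filter (0.143) and without the trend (0.0824).

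*Hsp90b1*, the ER form of Hsp90 (GRP94), was the most abundant member, at 251 and 239 FPKM (WT) and 309.5 and 298 FPKM (promoter KO). It did not overlap between the genotypes and missed the threshold (log2 fold change 0.31, SE 0.07, adjusted p = 0.0662). *Dnajb9*, a cochaperone of BiP, gave 8.203 and 6.72 FPKM for WT, with 10.9 and 10.4 for promoter KO (adjusted p = 0.0932). *Herpud1*, which serves the degradation of ER proteins, read 9.93 and 9.81 FPKM for WT, against 12.6 and 11.8 for promoter KO (adjusted p = 0.16). Both stood higher in each promoter KO sample than in either WT sample. *Xbp1*, whose mRNA is spliced by IRE1 into the form that encodes the active factor, overlapped (WT 22.0 and 18.8 FPKM, promoter KO 18.5 and 18.9 FPKM). The FPKM of a gene does not separate its spliced and unspliced forms. *Hsp90b1* and *Dnajb9*, like *Atf5*, *Cebpb*, *Psph*, *Shmt1*, *Shmt2*, *Mthfd1*, *Slc7a7* and *Slc6a9*, share exon sequence with genes on the opposite strand, the limit given for *Ddit3*. *Hsp90b1* also shares exon sequence with *Gm15344* and *Gm25745* on its own strand, which counting by strand would not separate.

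The ER stress response element, searched as CCAAT and CCACG 9 bases apart on both strands, stood in the promoters of *Hspa5* and *Hsp90b1*, 2 of 32 members, against 0.137% of genes. They are shown because these are the 2 most abundant members and both were higher in promoter KO, from the first to the last letter of the element in capitals. They lie at chr2:34772014-34772043 on the plus strand and chr10:86705638-86705667 on the minus strand (GRCm38.p6).
Hspa5: tagcgacttcaCCAATCGGAGGCCTCCACG
Hsp90b1: gctggacaagcCCAATCGCAAGGAGCCACG
The promoter of *Hsp90b1* holds a further match, on the other strand.

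The serine, one-carbon and proline enzymes showed no common direction. Limma called 0 of these 10 genes, 2 were lower and 2 higher at an unadjusted p under 0.05 (15.6% and 15.0% of tested genes), and 5 had a log2 fold change on each side of 0 (median -0.06). The first enzyme of serine synthesis from glucose intermediates, *Phgdh*, had levels of 123 and 109.7 FPKM (WT) and 86.9 and 107.9 FPKM (promoter KO). The 2 genotypes nearly touched, between WT 2 and promoter KO 2 (log2 fold change -0.26, 95% interval -0.57 to 0.04, adjusted p = 0.214). *Phgdh* has 9 near-identical copies in the annotation, so its level is uncertain. *Psat1*, the next enzyme, was level, at 104 and 94.0 FPKM (WT) and 107 and 105 FPKM (promoter KO) (log2 fold change 0.10, 95% interval -0.11 to 0.31, adjusted p = 0.453). *Psph*, which completes the pathway, gave 19.7 and 16.0 FPKM for WT, with 12.9 and 14.2 for promoter KO (adjusted p = 0.135).

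*Shmt2*, the mitochondrial enzyme that takes a one-carbon unit from serine, read 86.9 and 107.4 FPKM for WT, against 92.3 and 73.3 for promoter KO. The genotypes overlapped and the samples stood in the order of *Atf4* (adjusted p = 0.334). *Mthfd2*, the mitochondrial folate dehydrogenase and a known ATF4 target, had levels of 35.6 and 38.0 FPKM (WT) and 48.6 and 36.5 FPKM (promoter KO). Only promoter KO 1 stood above the rest, and the log2 fold change of 0.19 (95% interval -0.16 to 0.55, adjusted p = 0.401) turned to -0.01 without it. The cytosolic counterparts *Shmt1* (66.3 FPKM in WT, 84.3 in promoter KO, adjusted p = 0.129) and *Mthfd1* (103 and 129.7 FPKM, adjusted p = 0.156) were higher in both promoter KO samples without reaching the threshold. *Mthfd1l*, which releases formate in mitochondria, was the same in the 2 WT samples (58.9 FPKM) and lower with the promoter KO (51.5 and 53.9 FPKM) (adjusted p = 0.242).

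In proline synthesis, *Aldh18a1*, which makes its precursor, was level at 17.7 to 18.9 FPKM in the 4 samples. *Pycr1*, the mitochondrial reductase of the last step, gave 3.89 and 4.44 FPKM for WT, with 2.37 and 2.57 for promoter KO. Each promoter KO sample lay below each WT sample, and the log2 fold change of -0.57 (SE 0.14) was not called (adjusted p = 0.0721). *Asns* and *Mthfd2* lie on chromosome 6, where the median log2 fold change of 531 tested genes was 0.13, while the medians of the other chromosomes lay between -0.04 and 0.03. The part of this shift in the values of *Asns* and *Mthfd2* was not tested.

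Limma called 0 of the 10 tested amino-acid transporters, and at an unadjusted p under 0.05 there was 1 lower and there were 4 higher, against 15.6% and 15.0% of tested genes. The heterodimer that exchanges glutamine for leucine and other large neutral amino acids was level. Its light chain *Slc7a5* (LAT1) read 73.5 and 69.2 FPKM for WT, against 72.0 and 69.1 for promoter KO, with a log2 fold change of -0.02 (95% interval -0.22 to 0.18, adjusted p = 0.912). Its heavy chain *Slc3a2* had levels of 93.4 and 103 FPKM (WT) and 107.8 and 95.4 FPKM (promoter KO), with a log2 fold change of 0.05 (95% interval -0.19 to 0.29, adjusted p = 0.777). For both, the intervals leave room for changes of less than 0.3 on the log2 scale. *Slc7a11* (xCT), which exports glutamate for cystine and is induced by ATF4, was below the filter, at 0.393 and 0.488 FPKM (WT) and 0.302 and 0.259 FPKM (promoter KO). It was lower in both promoter KO samples, was not tested, and has 9 near-identical copies in the annotation.

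Among the members 3 transporters carry basic amino acids, and limma called none of them. *Slc7a3* (CAT3) gave 36.84 and 23.95 FPKM for WT, with 68.4 and 56.8 for promoter KO. This was 206% of WT, the largest log2 fold change upward among the tested members at 1.04 (SE 0.21), with an adjusted p of 0.0537. It passed without WT 1 (0.0395) and did not without WT 2 (0.204, log2 fold change 0.74), promoter KO 1 (0.232) or promoter KO 2 (0.0706). *Slc7a3* lies on the X chromosome, whose median log2 fold change was -0.01. *Slc7a1* (CAT1) read 4.33 and 4.12 FPKM for WT, against 7.33 and 6.43 for promoter KO (adjusted p = 0.0643). *Slc7a7*, which exports basic amino acids together with *Slc3a2*, had levels of 65.5 and 55.7 FPKM (WT) and 97.4 and 81.2 FPKM (promoter KO) (adjusted p = 0.0642). For these 3 genes, grouped after their values were seen, each promoter KO sample was above each WT sample, as for 32.9% of tested genes. *Slc7a6* and *Slc7a2*, 2 other carriers of basic amino acids, overlapped between the genotypes. *Slc7a9*, a further carrier, was higher in both promoter KO samples (0.341 and 0.268 FPKM) than in WT (0.0271 and 0.0305 FPKM). It was below the filter and was not tested.

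Of the carriers of neutral amino acids, *Slc38a2* (SNAT2), which is induced when amino acids are lacking, gave 74.8 and 60.7 FPKM for WT, with 106.8 and 87.6 for promoter KO (adjusted p = 0.0805). *Slc38a1* (SNAT1) averaged 17.6 FPKM for WT and 22.4 FPKM for promoter KO (adjusted p = 0.17). *Slc1a4* (ASCT1), a carrier of serine and alanine, had the opposite direction, at 17.1 and 23.0 FPKM (WT) and 9.73 and 14.0 FPKM (promoter KO) (log2 fold change -0.72, SE 0.21, adjusted p = 0.0889). None of these differences passed the threshold. In each the genotypes did not overlap, as was so for 32.4% of tested genes in the lower direction and 32.9% in the higher. The glutamine carrier *Slc1a5* (ASCT2) lay between 15.4 and 17.7 FPKM in the 4 samples, and the glycine transporter *Slc6a9* averaged 2.204 FPKM in WT against 1.47 FPKM with the promoter KO (adjusted p = 0.201).

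**Figure D3:**
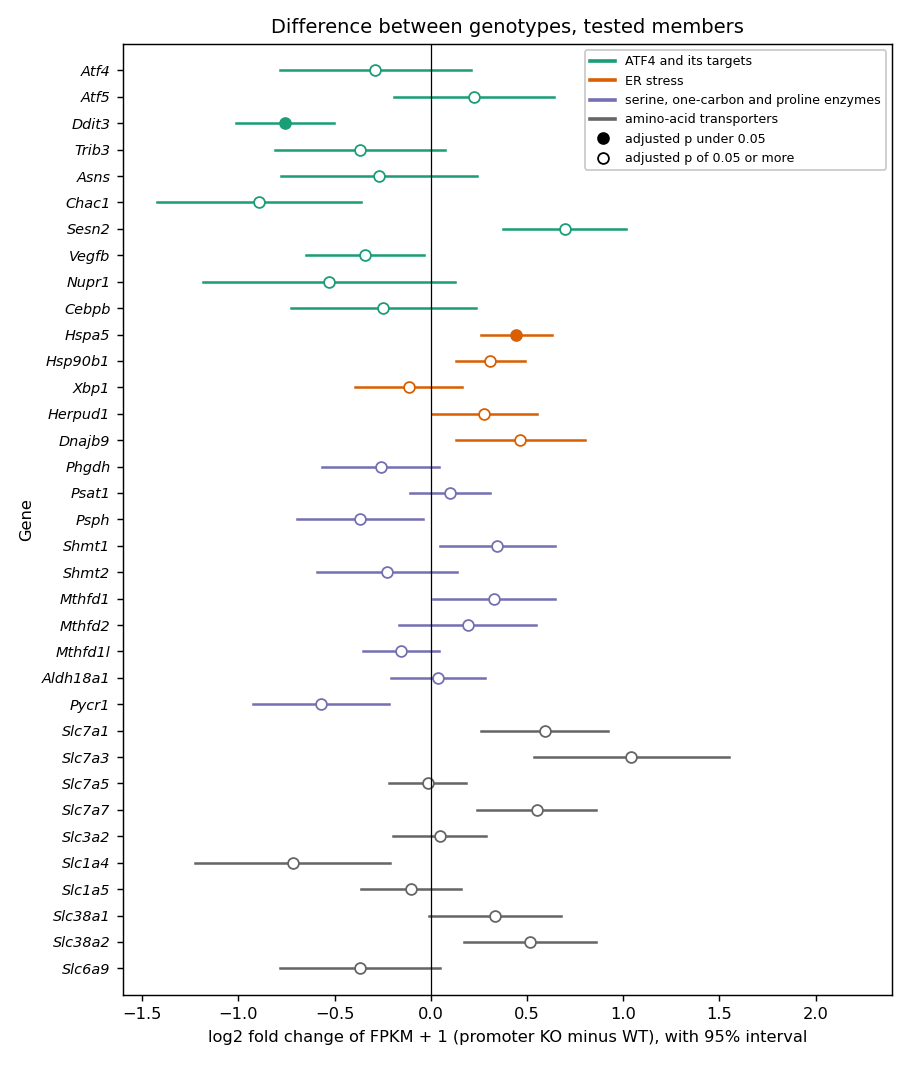
Log2 fold change of FPKM + 1 (promoter KO minus WT) of the 35 tested members with 95% intervals from limma, coloured by role; filled points have an adjusted p under 0.05. *Ddit3* (-0.76) and *Hspa5* (0.45) are filled, and 29 of the 35 intervals lie within -1 and 1, where 87.8% of those of all tested genes do.

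Related genes outside the 36 were counted in 9 lists. Of 14 tested other targets of ATF4 and CHOP, 1 fell and none rose, where 1.89% of tested genes fell. At an unadjusted p under 0.05 there were 6 lower and 0 higher, against 15.6% and 15.0% of tested genes, and the median log2 fold change was -0.22. The gene that fell was *Ddit4* (REDD1), an inhibitor of mTORC1 that also answers to hypoxia and glucocorticoids. It read 489 and 466 FPKM for WT, against 139 and 232 for promoter KO. Both promoter KO samples were far below both WT samples and differed from each other (log2 fold change -1.41, SE 0.23, limma adjusted p = 0.0422). Without promoter KO 2 the adjusted p was 0.0131, and the call was lost without WT 1 (0.0999), WT 2 (0.205) or promoter KO 1 (0.0676), without a filter (0.146) and without the trend (0.0667). The most abundant gene of the list, *Eif4ebp1*, a translation inhibitor chosen after its values were seen, had levels of 376 and 367 FPKM (WT) and 447 and 370 FPKM (promoter KO) and overlapped.

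The 20 cytosolic aminoacyl-tRNA synthetases, many of which ATF4 induces, stayed within a narrow range. Limma called 0 of them (2 lower and 3 higher at an unadjusted p under 0.05, against 15.6% and 15.0% of tested genes), their log2 fold changes ran from -0.38 to 0.28, and they summed to 1800, 1790, 1948 and 1808 FPKM in WT 1, WT 2, promoter KO 1 and promoter KO 2. Limma also called 0 of 15 genes listed for the eIF2 kinases, eIF2 and eIF2B, a list that also held *Ppp1r15b*, *Impact* and *Gcn1l1*. At an unadjusted p under 0.05 there were 0 lower and 4 higher, against the same shares. The 4 were *Eif2ak3*, which encodes PERK, *Impact*, *Eif2b1* and *Eif2ak1*, named after their values were seen. *Eif2ak3* had the largest log2 fold change of the list, 0.54 (limma adjusted p = 0.1). It read 6.56 and 4.91 FPKM for WT, against 9.41 and 8.11 for promoter KO.

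Of 24 other ER stress and chaperone genes 1 rose and none fell, where 1.68% of tested genes rose, and at an unadjusted p under 0.05 there were 0 lower and 7 higher, against 15.6% and 15.0%. Only 4 had a log2 fold change below 0, against 49.5% of tested genes, and the median was 0.17. The gene that rose was *Pdia3*, a disulfide isomerase that folds glycoproteins in the ER. It gave 172 and 163 FPKM for WT, with 249.2 and 239.3 for promoter KO. The samples of a genotype lay close together and the genotypes did not overlap (log2 fold change 0.54, SE 0.07, limma adjusted p = 0.0371). The adjusted p was 0.0469 without promoter KO 2, and the call was lost without WT 1 (0.0771), WT 2 (0.204) or promoter KO 1 (0.139), without a filter (0.134) and without the trend (0.0677). Limma called 0 of the 9 cytosolic heat shock genes, with 0 lower and 6 higher at an unadjusted p under 0.05, against the same shares. For 8 of these 9, against 32.9% of tested genes, each promoter KO value exceeded each WT value, and the list summed to 2226 and 2066 FPKM in WT against 3109 and 2574 FPKM in promoter KO.

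Limma called 0 of 20 tested other serine, glycine and folate genes, with 0 lower and 7 higher at an unadjusted p under 0.05, against 15.6% and 15.0% of tested genes. Only 1 log2 fold change was below 0, against 49.5% of tested genes (median 0.20). It called 0 of 13 enzymes of proline, arginine and glutamine, with 2 lower and 4 higher at an unadjusted p under 0.05, beside the same shares. It also called 0 of 13 genes of amino-acid sensing, which are sestrins, *Castor1*, GATOR subunits and the Rag GTPases. At an unadjusted p under 0.05, beside the same shares, 3 were lower (*Sesn1*, *Nprl2* and *Wdr24*). The 3 that were higher were all Rag GTPases (*Rragb*, *Rragc* and *Rragd*), named after their values were seen. Of 16 tested other amino-acid transporters 1 fell and none rose, where 1.89% of tested genes fell, and at an unadjusted p under 0.05 there were 4 lower and 1 higher, against 15.6% and 15.0% (median -0.19). Among the members the transporters had more higher than lower. The gene that fell was *Slc38a5*, a carrier of glutamine and other neutral amino acids, at 2.15 and 2.03 FPKM (WT) and 0.585 and 0.542 FPKM (promoter KO). The genotypes were well apart at a low level (log2 fold change -0.98 with the pseudocount of 1 and -1.89 without it, limma adjusted p = 0.0391). The call was lost without WT 1 (0.0926), WT 2 (0.204), promoter KO 1 (0.153) or promoter KO 2 (0.0604), and without a filter (0.133).

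**Figure D4:**
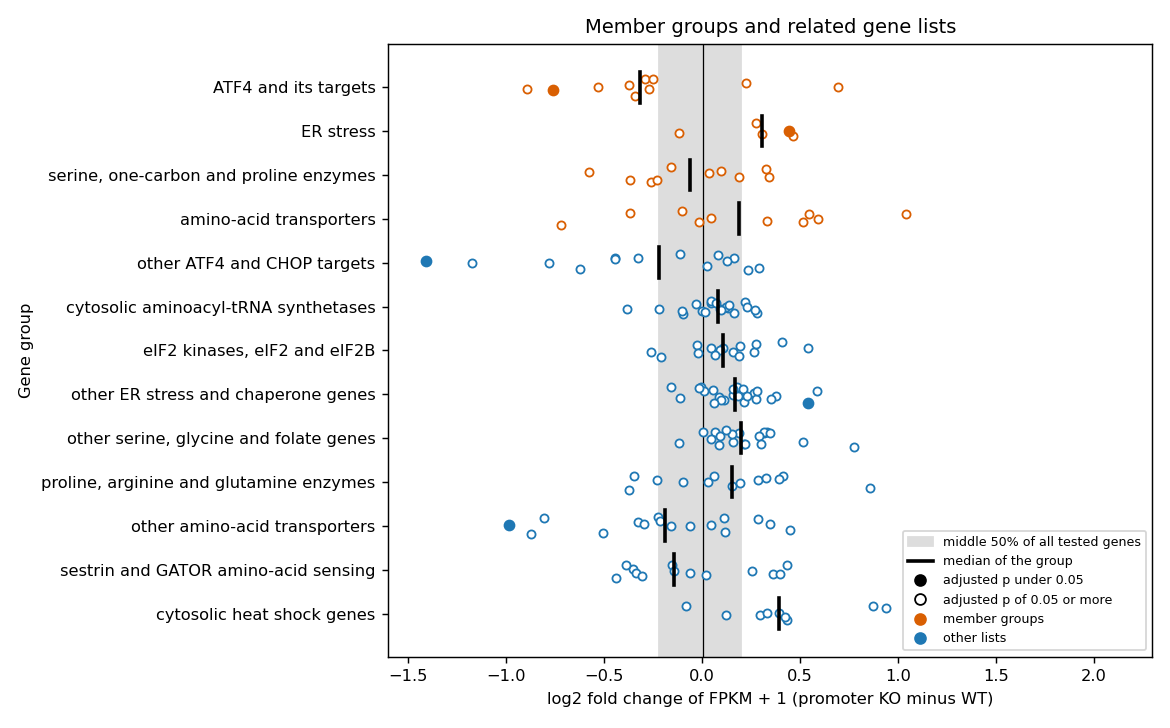
Log2 fold change of FPKM + 1 (promoter KO minus WT) of each tested gene in the 4 groups of members (orange) and 9 related lists (blue), with a bar at the median of each group; filled points have an adjusted p under 0.05. The grey band runs from the lower to the upper quartile of the 11941 tested genes (-0.22 to 0.20), and the ATF4 group has a median of -0.32 where the ER stress group has 0.31.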

How the data were processed

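The authors mapped reads to the mouse genome (mm10) and estimated expression with Cufflinks, and they deposited the values as 1 table per sample. The methods name TopHat and GENCODE M4 and call the unit RPKM, while the submitters' processing notes name HISAT2 2.1.0 and Cuffnorm. The deposited values name no unit and were taken as FPKM. The strand of the libraries is not given in the sources used here. The FPKM of a sample summed to between 673951 and 696928. From low values the depth was estimated at 24700000, 21900000, 21600000 and 20100000 fragments (WT 1, WT 2, promoter KO 1 and promoter KO 2), assuming fragments of 200 bases.

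Log2(FPKM + 1) was fitted for the 11941 genes that reached 1 FPKM in 2 or more samples, with limma 3.58.1 in R 4.3.3 (lmFit, eBayes with trend, two-sided), by genotype without a block, and p-values were adjusted over all tested genes by Benjamini-Hochberg. An exact permutation test of 2 against 2 samples cannot go below p = 0.333 and was not used. Fold changes on this scale understate changes of low genes. The p-values rest on the spread between the labelled replicates. For each gene limma draws this spread toward the trend over all tested genes, with 3.99 prior against 2 residual degrees of freedom. The procedure was tested on simulated data.

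The members and lists were chosen with earlier results of these data known. The called members, core stress genes such as *Atf4*, *Asns* and *Chac1*, and the called genes of the related lists were named with values in every sample. Called marker genes were counted, and not all of them were named. *Niban1* and *Castor1* were found under older symbols. Coordinates are from GENCODE M21 (GRCm38), and near-identical copies (at least 95% identity over 200 bases) were found with BLAST 2.17.0. Other pseudocounts, filters, scalings, a replicate block and leaving out each sample were tried.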

Additional observations from a re-analysis of the deposited data

How the results depend on the processing

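Of the 35 tested members, 29 kept the sign of their log2 fold change in every alternative fit that tested them, and 6 changed sign in at least 1 (*Atf5*, *Cebpb*, *Mthfd2*, *Aldh18a1*, *Slc7a5* and *Slc3a2*). There were 11 such fits, and 10 for *Nupr1*, *Pycr1* and *Slc6a9*. Unless a cause is named, the cause was not tested.

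Without a filter (18215 genes tested) limma called 0 genes, members or list genes in either direction, with 1982 genes lower and 2077 higher at an unadjusted p under 0.05. With a mean of at least 5 FPKM it called 108 genes lower and 95 higher, 1 member lower and 0 higher, and 1 list gene lower, since *Slc38a5* was then not tested. Without the trend it called 27 lower and 55 higher, 0 members (6 lower and 9 higher unadjusted), and 1 list gene lower and 0 higher. After median centring it called 126 lower and 157 higher, and 0 members higher. After quantile normalization it called 2 list genes higher. With an unadjusted p under 0.05 and a fold change of FPKM + 1 below 0.5 or above 2, 0 members were lower and 0 list genes higher. By the ratio of mean FPKM *Chac1* (0.481) and the list genes *Hspa1b* (2.17), *Slc38a5* (0.27), *Adm2* (0.396) and *Slc16a10* (0.494), named after their values were seen, would also pass. The median log2 fold change of the members was -0.0596 without a filter, 0.0422 with a mean of at least 5 FPKM, 0.0153 after median centring and -0.0611 after quantile normalization.

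Leaving out 1 sample at a time, where the lone sample is assumed to vary like the other genotype, gave 0 to 248 genes lower and 0 to 238 higher, 0 to 1 members lower and 0 to 2 higher, 0 to 3 list genes lower and 0 to 6 higher, and a median of -0.0524 to 0.0132 for the members. Fewer residual degrees of freedom are part of this change.

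With the replicate block limma called 667 genes lower and 535 higher, 3 members lower (*Chac1*, *Ddit3* and *Slc1a4*) and 6 higher (*Hsp90b1*, *Hspa5*, *Sesn2*, *Slc38a2*, *Slc7a3* and *Slc7a7*), and 9 list genes lower and 13 higher. The deviations of same-numbered samples had a correlation of 0.03 across genes, and the labels give no pairing beyond the number. Genes below about 1 FPKM, such as *Slc7a11*, rest on few fragments at this depth.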

Other observations

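The WT samples differed along *Atf4* and the 9 targets among the members, a pattern chosen after the values were seen and given without a test. Of the 10 genes of the ATF4 group 9 were higher in WT 2 than in WT 1, against 49.1% of all tested genes, and 4 stood higher in promoter KO 2 than promoter KO 1, against 53.5%. *Asns*, *Cebpb* and *Shmt2* had the same order of the 4 samples as *Atf4* (WT 2, promoter KO 1, WT 1, promoter KO 2), which is 8.82% of the 34 other tested members, against 2.07% of all tested genes. Of the 14 tested other targets of ATF4 and CHOP 0 had this order, and 8 were higher in WT 2 than in WT 1. *Atf4* differed by 0.47 on the log2 scale between the WT samples and by -0.45 between the promoter KO samples (second minus first), both larger than its difference of -0.29 between the genotypes.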
